A study of Rattus norvegicus with 9 samples.

Results

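A set of 10 genes of the hypoxia response were followed in the rat lung, namely Pfkfb3, Slc2a1, Stc1, Adm, Bnip3, Ndrg1, Ankrd37, Egln3, Hif1a and Epas1. They were taken by name from a deposited table of 22833 genes, each name had 1 entry, and all 10 members had a mean level of at least 0.5 FPKM (a read density scaled for transcript length and library size), the minimum that left 15402 genes for testing. The lungs came from male Sprague-Dawley rats aged 8 weeks, anaesthetised, given heparin and ventilated in all groups. In Sham rats the left hilum, the root of the lung with its vessels and bronchus, was dissected free but not clamped. In IR rats it was clamped for 30 min and then released for 2 h, and in I-post C rats the same clamp was followed by 3 cycles, each 30 s of clamping and then 30 s of reopening, and by 2 h of unbroken reperfusion. Each group had 3 libraries, and since the labels do not say that each library is a separate rat, p-values measure the spread between these libraries.

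In cells with enough oxygen, prolyl hydroxylases such as EGLN3 mark the alpha subunits of the hypoxia-inducible factors, HIF1A and EPAS1, for destruction. When oxygen falls the alpha subunits persist, pair with ARNT and bind the core letters ACGTG or GCGTG near target genes. Known targets supply glucose to glycolysis (Slc2a1, Pfkfb3), signal to vessels (Adm), alter mitochondria (Bnip3) or act back on the pathway (Egln3). EPAS1 is abundant in lung endothelium. HIF activity is set mainly by the stability of the alpha proteins, which RNA levels do not measure.

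Library totals were 45110590 to 51214941 counts, with 18446 to 19602 genes detected. Alveolar markers were high in all 9 libraries, as the tissue label requires. The libraries of Sham 3 and IR 3 stood apart. Sham 3 had the fewest genes detected, the lowest share of mitochondrial counts (3.03%) and the highest summed alveolar type 2 marker level (44410 FPKM, others 21880 to 41170). Most of that sum was Sftpc (37520 FPKM), which was highest in Sham 3. Sftpa1 (3350 FPKM) and Lamp3 (136.1 FPKM) of the same list were lowest in Sham 3, and Sftpb, Abca3 and Napsa were neither highest nor lowest there. IR 3 held skeletal muscle transcripts, with 7 muscle markers summing to 4255 FPKM against 10.9 to 76.3 in the other 8 libraries. Neutrophil markers (5 genes) summed to 82.9 to 137.5 FPKM in Sham, 280.1 to 792.7 in IR and 159.1 to 1235 in I-post C. Most of each sum was S100a8 and S100a9. In FPKM the IR libraries lay above the Sham libraries for S100a8, S100a9 and Mmp8, and overlapped them for Csf3r and Cxcr2. Red cell markers (2 genes) summed to 13.1 to 21.3 FPKM in Sham, 15.7 to 56.6 in IR and 42.8 to 63.8 in I-post C. In whole lung, fewer cells of a type and less RNA per cell cannot be told apart.

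The upstream sequences of the members show where the core letters lie. RefSeq promoters (rat build GRCr8, 250 bases before to 50 after the gene start) were matched for 8 of the 10 members, and no entry was matched for Ndrg1 and Stc1. A few are printed 5′ to 3′ on the strand of the gene with ACGTG and GCGTG of either strand in capitals, Pfkfb3 as the only member called by edgeR in any comparison, Slc2a1 and Ankrd37 as members with several matches, and Adm as a member with no match whose IR level lay below Sham.
Pfkfb3 (chr17:71944683-71944982, plus strand): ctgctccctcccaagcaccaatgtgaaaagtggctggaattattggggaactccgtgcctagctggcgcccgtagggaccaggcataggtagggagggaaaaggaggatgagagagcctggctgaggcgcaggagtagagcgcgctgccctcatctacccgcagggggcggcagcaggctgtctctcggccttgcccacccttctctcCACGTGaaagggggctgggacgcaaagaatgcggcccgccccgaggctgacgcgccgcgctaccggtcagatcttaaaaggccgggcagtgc
Slc2a1 (chr5:138002272-138002571, plus strand): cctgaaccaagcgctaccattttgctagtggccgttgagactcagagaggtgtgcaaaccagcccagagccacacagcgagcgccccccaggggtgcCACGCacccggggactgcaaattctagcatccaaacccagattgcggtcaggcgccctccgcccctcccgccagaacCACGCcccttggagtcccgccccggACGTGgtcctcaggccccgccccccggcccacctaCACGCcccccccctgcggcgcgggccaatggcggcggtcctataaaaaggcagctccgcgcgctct
Ankrd37 (chr16:53001257-53001556, plus strand): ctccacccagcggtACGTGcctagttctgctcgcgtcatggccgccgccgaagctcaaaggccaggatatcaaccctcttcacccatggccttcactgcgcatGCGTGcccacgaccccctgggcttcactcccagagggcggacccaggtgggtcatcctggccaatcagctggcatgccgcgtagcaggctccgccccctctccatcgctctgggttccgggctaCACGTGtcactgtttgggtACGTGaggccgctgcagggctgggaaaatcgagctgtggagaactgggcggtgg
Adm (chr1:174179950-174180249, plus strand): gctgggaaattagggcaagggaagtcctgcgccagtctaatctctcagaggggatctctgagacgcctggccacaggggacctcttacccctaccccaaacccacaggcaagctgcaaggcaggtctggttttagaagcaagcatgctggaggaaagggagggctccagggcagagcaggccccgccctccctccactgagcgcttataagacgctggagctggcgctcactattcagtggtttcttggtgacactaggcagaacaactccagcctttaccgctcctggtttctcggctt
The Pfkfb3 window held 1 palindrome CACGTG, which carries ACGTG on both strands and is also the E-box read by basic helix-loop-helix factors, starting 42 bases before the gene start. Ankrd37 held 4 matches to ACGTG, 2 of them in 1 CACGTG, and 1 to GCGTG. Slc2a1 held 1 match to ACGTG and 3 matches to the other core. The letters ACGTG were found in 5 of the 8 windows (Pfkfb3, Slc2a1, Ankrd37, Bnip3 and Hif1a) and in 19.8% of 21851 protein-coding promoters, GCGTG in 3 of 8 and 34.7%, and either in 5 of 8 and 45.8%. CpG pairs numbered 20 in Pfkfb3, 25 in Slc2a1, 21 in Ankrd37, 27 in Bnip3 and 31 in Hif1a. They numbered 8 in Adm, 1 in Egln3 and 36 in Epas1. No match was found in the windows of Adm, Egln3 and Epas1, whose edgeR log2 fold changes in IR over Sham were -0.53, 0.68 and -0.02. A match is a run of letters, and no binding was measured. A link between matches and levels was not tested.

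Clamping and release left Pfkfb3 higher, while most other members stood modestly higher in IR without being called. Pfkfb3 rose 4.01-fold in IR over Sham and was the only member called by edgeR's quasi-likelihood test (adjusted p under 0.05 and a log2 fold change of at least 1 in size), 1 of 10 against 0.299% of all genes. DESeq2 on the libraries compared called Pfkfb3 and Stc1, against 1.9% of all genes. Log2 fold changes were above 0 in 8 members, with a median of 0.69, while 47.9% of all genes were above 0, with a median of -0.02. With Sham 3 and IR 3 left out, the median was 0.68, 8 members were above 0 and none was called. In that fit 5 of all genes were called. In 6 members every IR library lay above every Sham library in FPKM (Pfkfb3, Stc1, Bnip3, Ndrg1, Ankrd37 and Hif1a), against 5.62% of all genes. On the CPM scale (counts relative to the library total, scaled by TMM), 6 did so, with Slc2a1 in place of Ankrd37, against 8.6%. The members were chosen with earlier results of these data known, so the shares set beside all genes describe the set and do not test it.

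**Figure D1:**
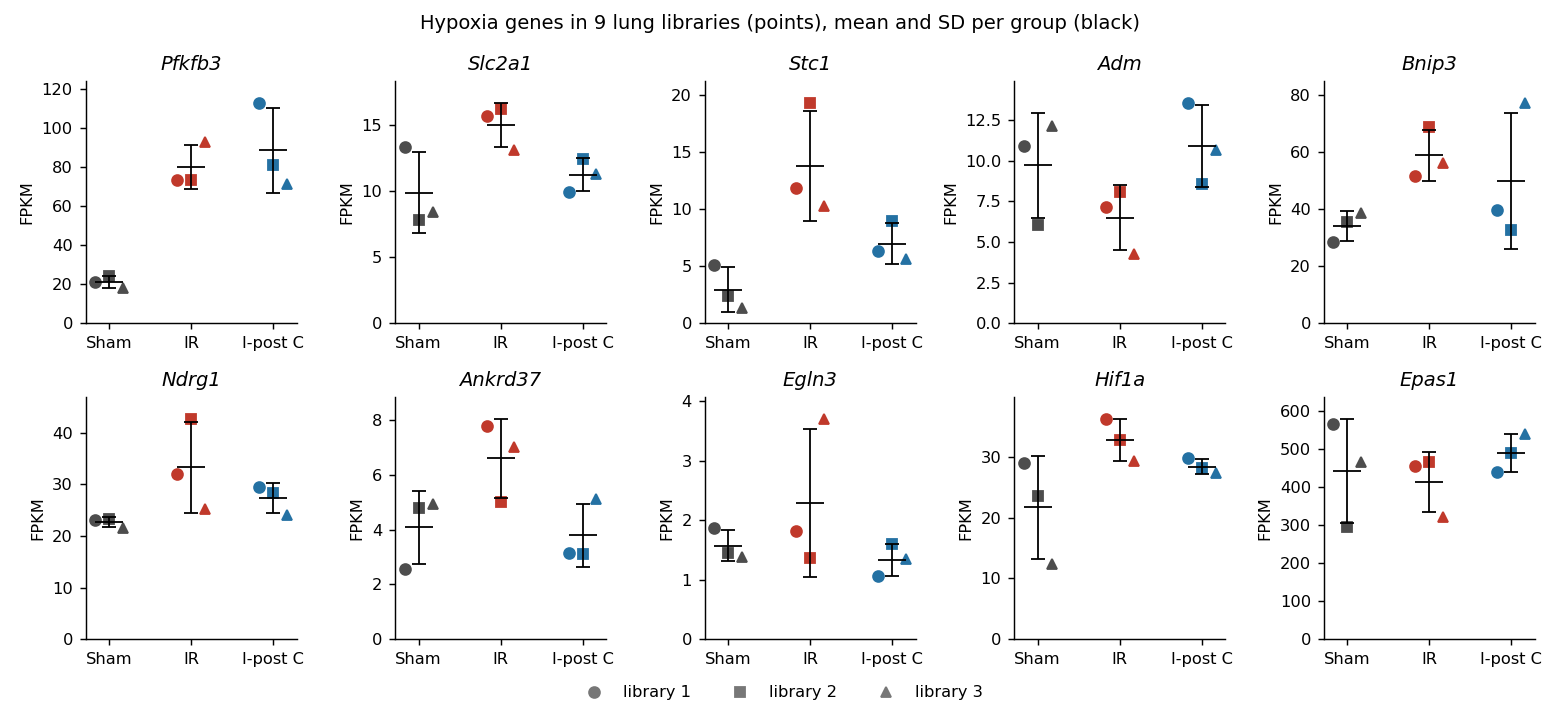
FPKM of each of the 10 genes (vertical axes, each from 0) in the 9 libraries, grouped as Sham, IR and I-post C. Points are libraries, with circles, squares and triangles for libraries 1, 2 and 3, and black marks give the mean and SD of each group (n = 3). Pfkfb3 stands at 18.0 to 24.1 in Sham and at 71.4 to 112.6 in the other 6 libraries.

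Pfkfb3 (chr17:70684134-70711224 in rn6, plus strand) encodes the enzyme that makes fructose-2,6-bisphosphate, the strongest activator of phosphofructokinase in glycolysis. Its level was 21.2, 24.1 and 18.0 FPKM in Sham 1 to 3, 73.4, 73.3 and 92.7 in IR, and 112.6, 81.1 and 71.4 in I-post C. Every clamped library lay above every Sham library, and the IR and I-post C libraries overlapped. The means were 21.1 ± 3.02, 79.8 ± 11.2 and 88.4 ± 21.5 FPKM (SD, n = 3 each). The log2 fold change of IR over Sham was 2.00 (SE 0.25, edgeR adjusted p = 0.0274), rank 9 by p among the genes tested. Left-out libraries moved it only between 1.77 and 2.13, but the adjusted p was above 0.05 without Sham 1 (0.0835), Sham 2 (0.140), Sham 3 (0.0696), IR 2 (0.0910), IR 3 (0.0844) or I-post C 2 (0.0659), and without Sham 3 and IR 3 together (0.148, log2 fold change 1.71). It was also 0.0737 when edgeR was fitted on the Sham and IR libraries alone. Over all genes the calls in these fits fell too, from 46 in the main fit. They fell to 1 without Sham 1, 0 without Sham 2, 1 without Sham 3 and 0 without IR 2. They were 5 without IR 3, 1 without I-post C 2, 5 without Sham 3 and IR 3, and 6 on the Sham and IR libraries alone.

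Slc2a1 encodes GLUT1, the glucose transporter of most cells at rest. It stood at 13.4, 7.82 and 8.48 FPKM in Sham, 15.7, 16.3 and 13.2 in IR, and 9.96, 12.5 and 11.4 in I-post C. Sham 1 exceeded the lowest IR library, so these groups overlapped in FPKM. The edgeR log2 fold change of IR over Sham was 0.69 (SE 0.19, adjusted p = 0.232).

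Stc1 encodes stanniocalcin-1, a secreted glycoprotein that is induced in low oxygen in many cells. Its level was 5.13, 2.37 and 1.39 FPKM in Sham, 11.8, 19.3 and 10.2 in IR, and 6.37, 9.0 and 5.60 in I-post C. The groups were ordered Sham, I-post C and IR with no overlap between any of them. The log2 fold change of IR over Sham was 2.34 (SE 0.41), larger than that of Pfkfb3, with an edgeR adjusted p of 0.0691 and a DESeq2 adjusted p of 0.000108. Without Sham 3 and IR 3 it was 2.13. The Sham libraries varied more for Stc1 (CV 65.4%) than for Pfkfb3 (14.3%), and the median CV of genes tested in Sham was 33.9%.

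Adm encodes adrenomedullin, a peptide that widens vessels and tightens the endothelial barrier. It was 10.9, 6.07 and 12.2 FPKM in Sham, 7.13, 8.11 and 4.28 in IR, and 13.6, 8.55 and 10.7 in I-post C. Sham spanned the range of both other groups apart from the lowest IR and the highest I-post C library. IR against Sham had a log2 fold change of -0.53 (SE 0.34, edgeR adjusted p = 0.573), which was -0.77 without Sham 2, -0.27 without Sham 3 and -0.10 without Sham 3 and IR 3.

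Bnip3 encodes a protein of the outer mitochondrial membrane that promotes removal of mitochondria. Its level was 28.4, 35.4 and 38.6 FPKM in Sham, 51.8, 68.9 and 56.0 in IR, and 39.9, 32.7 and 77.2 in I-post C. The IR libraries lay above the Sham libraries, and I-post C 3 was the highest of all. IR over Sham had a log2 fold change of 0.84 (SE 0.34, edgeR adjusted p = 0.364). The libraries highest in Bnip3, I-post C 3 and IR 2, also had the highest neutrophil marker sums, 1235 and 792.7 FPKM, and the part of neutrophils in the Bnip3 level was not tested.

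**Figure D2:**
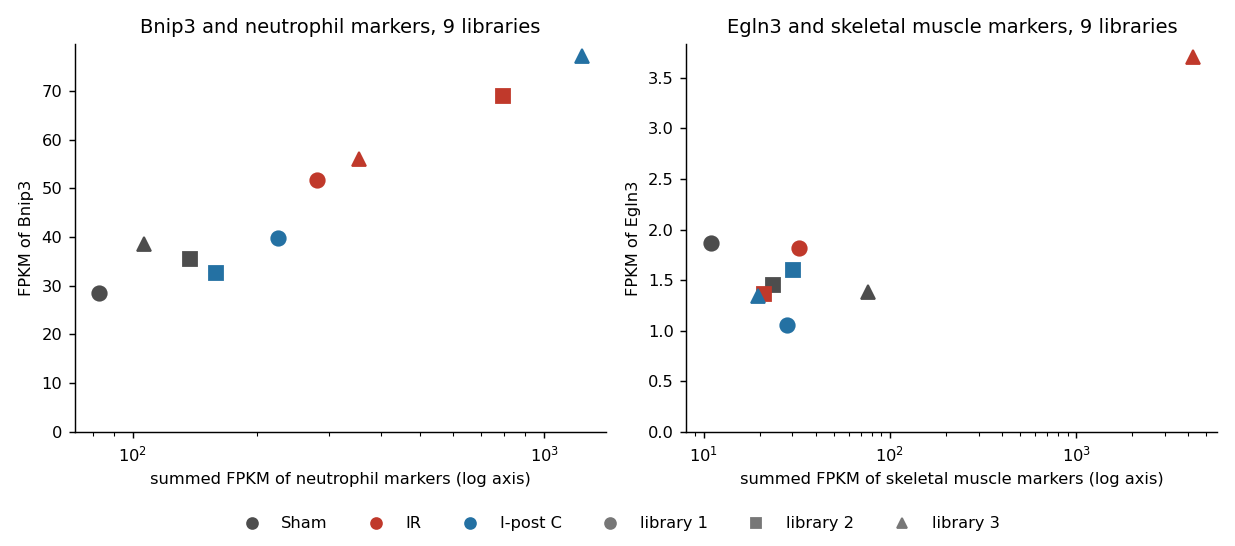
Left, FPKM of Bnip3 against the summed FPKM of 5 neutrophil markers, and right, FPKM of Egln3 against the summed FPKM of 7 skeletal muscle markers, both with a logarithmic horizontal axis. Each point is 1 of 9 libraries, coloured by group and shaped by library number. I-post C 3 is highest in both Bnip3 (77.2) and neutrophil markers (1235), and IR 3 is highest in both Egln3 (3.70) and muscle markers (4255).

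Ndrg1 encodes a stress-responsive cytoplasmic protein induced by hypoxia and metals. It varied little in Sham, at 23.1, 23.4 and 21.5 FPKM, and stood at 32.0, 42.6 and 25.1 in IR and 29.5, 28.3 and 24.1 in I-post C. All clamped libraries exceeded all Sham libraries in FPKM, by a small margin in IR 3 and I-post C 3. The log2 fold change of IR over Sham was 0.61 (SE 0.19, edgeR adjusted p = 0.275), and 0.38 without IR 2, the highest library.

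Ankrd37 encodes a small ankyrin-repeat protein known as a HIF-1 target. It was 2.56, 4.79 and 4.92 FPKM in Sham, 7.79, 4.99 and 7.01 in IR, and 3.14, 3.11 and 5.12 in I-post C. IR lay just above Sham in FPKM but overlapped it in CPM. IR over Sham had a log2 fold change of 0.72 (SE 0.42, edgeR adjusted p = 0.534), which was 0.42 without Sham 1 and 0.91 without Sham 3.

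Egln3 encodes the HIF prolyl hydroxylase PHD3 and is itself a HIF target. It was the lowest member, at 1.87, 1.46 and 1.38 FPKM in Sham, 1.82, 1.37 and 3.70 in IR, and 1.06, 1.60 and 1.35 in I-post C. IR 3, the library with muscle transcripts, was the only one above 1.87. The log2 fold change of IR over Sham was 0.68 (SE 0.43, edgeR adjusted p = 0.576) and fell to 0.0048 without IR 3.

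Hif1a encodes the oxygen-regulated subunit of HIF-1. It was 29.0, 23.6 and 12.4 FPKM in Sham, 36.2, 32.7 and 29.3 in IR, and 29.7, 28.1 and 27.3 in I-post C. Sham 3 was low, and the IR libraries exceeded the Sham libraries. The log2 fold change of IR over Sham was 0.69 (SE 0.23, edgeR adjusted p = 0.296) and 0.42 (SE 0.13) without Sham 3.

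Epas1, which encodes HIF-2 alpha, was the most abundant member, at the 99.2 percentile of genes tested. It stood at 564.8, 295.3 and 466.7 FPKM in Sham, 454.1, 464.8 and 322.3 in IR, and 439.0, 489.5 and 539.0 in I-post C. The groups overlapped, and IR over Sham had a log2 fold change of -0.02 with a 95% interval of -0.55 to 0.50. A change within that interval could not be detected.

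**Figure D3:**
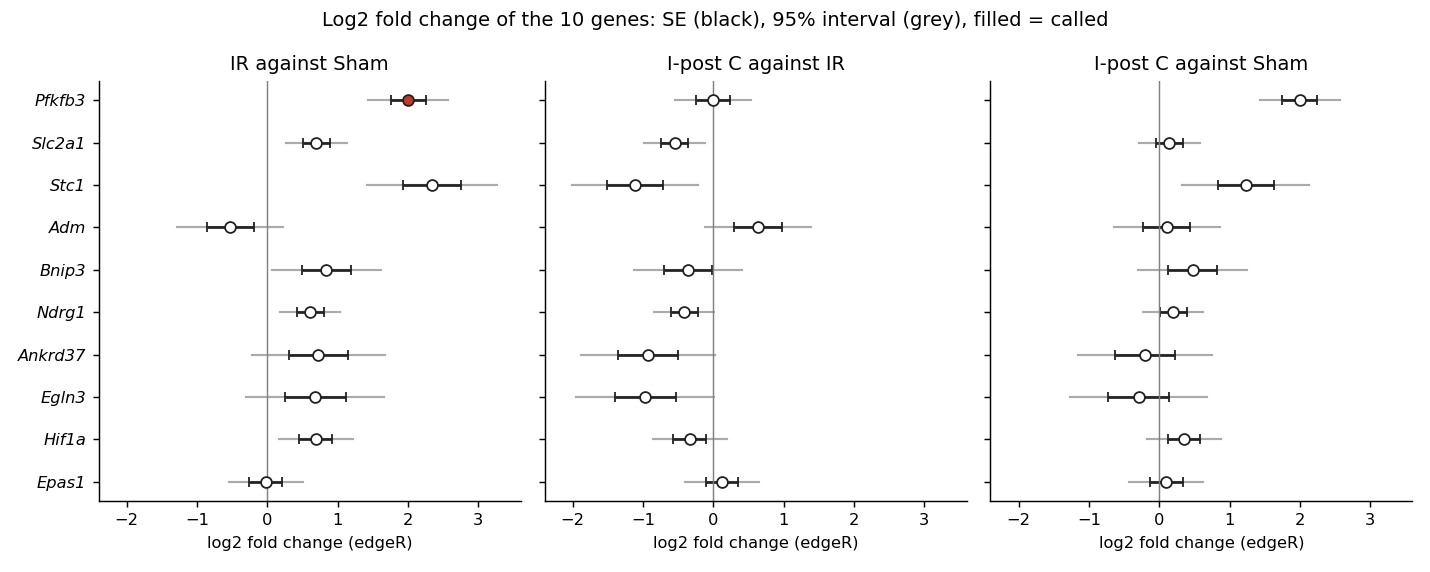
EdgeR log2 fold change (horizontal axes) of each of the 10 genes, with a panel each for IR over Sham, I-post C over IR and I-post C over Sham. Black bars are SE, grey lines 95% intervals, and the filled point is the 1 called result, Pfkfb3 in IR against Sham (2.00). In I-post C against IR, Pfkfb3 lies at -0.0046 and Stc1 at -1.11.

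I-post C against IR asked whether postconditioning altered the response of the clamped lung. No difference in Pfkfb3 was detectable, and most other members lay below their IR level. No member was called by edgeR, where 0% of all genes were called and 463 of all genes and 2 members had an unadjusted p under 0.05, and none by limma. DESeq2 called 1 member, Stc1, against 0.24% of all genes. Pfkfb3 had a log2 fold change of -0.0046 (SE 0.24), with a 95% interval of -0.55 to 0.54. It became 0.22 without Sham 3 and IR 3, so its sign carried no information.

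Log2 fold changes were below 0 in 8 members of I-post C against IR, with a median of -0.39, while all genes had a median of -0.01. Without Sham 3 and IR 3, 7 were below 0 and the median was -0.32. Stc1 had a log2 fold change of -1.11 (SE 0.40, adjusted p = 1 by edgeR and 0.0369 by DESeq2). Slc2a1 had -0.55 (SE 0.19, edgeR adjusted p = 1). In both of these, every I-post C library lay below every IR library, and in FPKM they were the only members to do so, against 2.59% of all genes. In CPM, Ankrd37, Ndrg1 and Hif1a did so too, 5 members against 5.86%. Adm was the only member higher without overlap in FPKM, against 11.2% of all genes, with a log2 fold change of 0.64 (SE 0.34), and it overlapped in CPM. Over all genes, FPKM put 1724 genes higher and 399 lower without overlap, and CPM put 888 higher and 903 lower, so directions here were read on both scales.

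The values of Egln3, Ankrd37, Ndrg1, Bnip3 and Hif1a in I-post C against IR ranged from -0.97 to -0.33 on the log2 scale. For Egln3 the value of -0.97 became -0.31 without IR 3. Bnip3 moved from -0.37 to -0.85 without I-post C 3, the library with the highest neutrophil marker sum, and to -0.12 without I-post C 2. Ndrg1 moved from -0.41 to -0.20 without IR 2. Epas1 had 0.12 (SE 0.23).

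I-post C against Sham, which shares its Sham libraries with the first comparison and its I-post C libraries with the second, had Pfkfb3 in front again. Its log2 fold change was 2.00 (SE 0.25), 3.99-fold, and it ranked 2 by p among all genes. The edgeR adjusted p was 0.0838, so it was not called, and edgeR called 0% of all genes, although 1065 genes and 2 members had an unadjusted p under 0.05. DESeq2 called Pfkfb3 (adjusted p = 1.39e-09), against 0.701% of all genes. Limma on log2(FPKM + 0.5) called 1 gene of 15402, and that gene was Pfkfb3 (adjusted p = 0.0448). Stc1 had 1.23 (SE 0.40, edgeR adjusted p = 0.659). Pfkfb3, Stc1 and Ndrg1 were higher without overlap in FPKM, against 5.56% of all genes. In CPM, Pfkfb3, Stc1 and Hif1a were higher without overlap, against 5.68%, while Ndrg1 overlapped. Egln3 was lower without overlap in CPM by a narrow margin, against 3.65%, and overlapped in FPKM. The 2 red cell markers did not overlap in sum between these groups, and DESeq2 called both (adjusted p = 0.000641 for Alas2 and 0.000288 for Slc4a1) while edgeR called neither (0.615 and 0.588). Their part in the members' values was not tested. The other 8 members had log2 fold changes between -0.29 and 0.47.

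With IR and I-post C pooled as clamped lungs, Pfkfb3 was again the 1 member called by edgeR (log2 fold change 2.00, SE 0.23, adjusted p = 0.0452), against 0.039% of all genes. The adjusted p was 0.0588 to 0.154 without Sham 1, Sham 2, Sham 3, IR 2, I-post C 1 or I-post C 2, and 0.133 without Sham 3 and IR 3. In each of the fits that left out 1 of these libraries, edgeR called 0 of all genes. DESeq2 on all 9 libraries called Stc1 too, so 2 members, beside 293 of all 15402 genes tested. Pfkfb3, Stc1 and Ndrg1 were higher without overlap in FPKM, against 2.7%, and Pfkfb3, Stc1 and Hif1a in CPM, against 3.53%. In all, 9 members were above 0, with a median log2 fold change of 0.41, beside -0.03 for all genes.

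Genes around the members were described from lists, where medians and values with an SE are edgeR log2 fold changes. Among 21 tested glycolytic HIF targets, none was called by edgeR in any comparison. In IR against Sham 19 of them were above 0, with a median of 0.24, but without IR 3, the library with muscle transcripts, 12 were above 0 and the median was 0.06. Without Sham 3, 20 were above 0 with a median of 0.37, and without Sham 3 and IR 3, 15 with a median of 0.18. Aldoa, aldolase A of glycolysis, was 624.0 FPKM in IR 3 against 320.2 and 396.7 in IR 1 and IR 2. Ldha, which makes lactate, had a log2 fold change of 0.36 (SE 0.23) in IR against Sham. In I-post C against IR all 21 were below 0, with a median of -0.25, and without IR 3 this count was 17, with a median of -0.15. Slc2a3, the GLUT3 transporter, and Hk2, a hexokinase, both chosen after their values were seen, had the largest values of the list in IR against Sham, 1.97 (SE 0.57) and 1.67 (SE 0.32). They were the 2 list genes called by DESeq2 on the compared libraries, against 1.9% of all genes, and limma called none. In edgeR 3 of the 21 had an unadjusted p under 0.05 in IR against Sham, beside 1884 of all 15402 genes tested. The same share of all genes applies to the counts of unadjusted p in the lists below.

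Of 32 other tested hypoxia targets, 3 were called by edgeR in IR against Sham, against 0.299% of all genes, and 2 of them are described. Bhlhe40, a basic helix-loop-helix repressor, had a log2 fold change of 2.65 in IR over Sham (SE 0.33, edgeR adjusted p = 0.0274). Its I-post C libraries (34.3, 34.2 and 18.8 FPKM) all lay between those of Sham (13.9, 10.5 and 5.53) and those of IR (62.9, 49.4 and 62.0). Edn1, the endothelin-1 precursor that constricts vessels, had a log2 fold change of 2.36 in IR over Sham (SE 0.34, edgeR adjusted p = 0.0373). The list as a whole had a median of 0.10, with 23 of 32 above 0. Without Sham 3 none of the list was called, and without IR 3 there were 2. Over all genes the calls in these fits also fell, from 46 to 1 without Sham 3 and to 5 without IR 3.

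None of 15 tested genes of the oxygen-sensing machinery was called by edgeR in any comparison. In IR against Sham their log2 fold changes ran from -0.46 to 0.45, with a median of -0.06. Rbx1 and Elob, parts of the ubiquitin ligase that removes HIF alpha subunits, had -0.17 (SE 0.23) and -0.23 (SE 0.40). In IR against Sham, 0 of the 15 had an unadjusted p under 0.05 in edgeR, and DESeq2 and limma called 0.

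The 4 other tested genes of fructose-2,6-bisphosphate control were not called by edgeR. Tigar and Pfkfb2 had 0.24 (SE 0.23) and 0.15 (SE 0.27) in IR against Sham. Pfkfb4, chosen after its values were seen, had 0.92 (SE 0.29) and was the 1 gene of the list with an unadjusted p under 0.05 in edgeR. DESeq2 and limma called 0 in IR against Sham.

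None of the 5 tested genes of the adrenomedullin receptor list was called by edgeR, and in IR against Sham 2 had an unadjusted p under 0.05 and DESeq2 and limma called 0. In IR against Sham 2 of the 5 were above 0, with a median of -0.55. Without Sham 3, 3 were above 0 and the median was 0.29. Ramp2, a partner that makes CALCRL an adrenomedullin receptor, had -1.02 (SE 0.43) in IR against Sham. Its Sham 3 level was 629.7 FPKM, against 212.4 and 295.6 in Sham 1 and Sham 2. Calcrl had -0.55 (SE 0.27) in IR against Sham and 0.62 (SE 0.27) in I-post C against IR. None of 14 tested paralogs of members was called by edgeR. In IR against Sham 2 of them had an unadjusted p under 0.05, beside 1884 of all 15402 genes tested. DESeq2 called 1, against 1.9% of all genes, and limma 0. Bnip3l and Ndrg2 had -0.17 (SE 0.15) and 0.17 (SE 0.38) in IR against Sham.

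**Figure D4:**
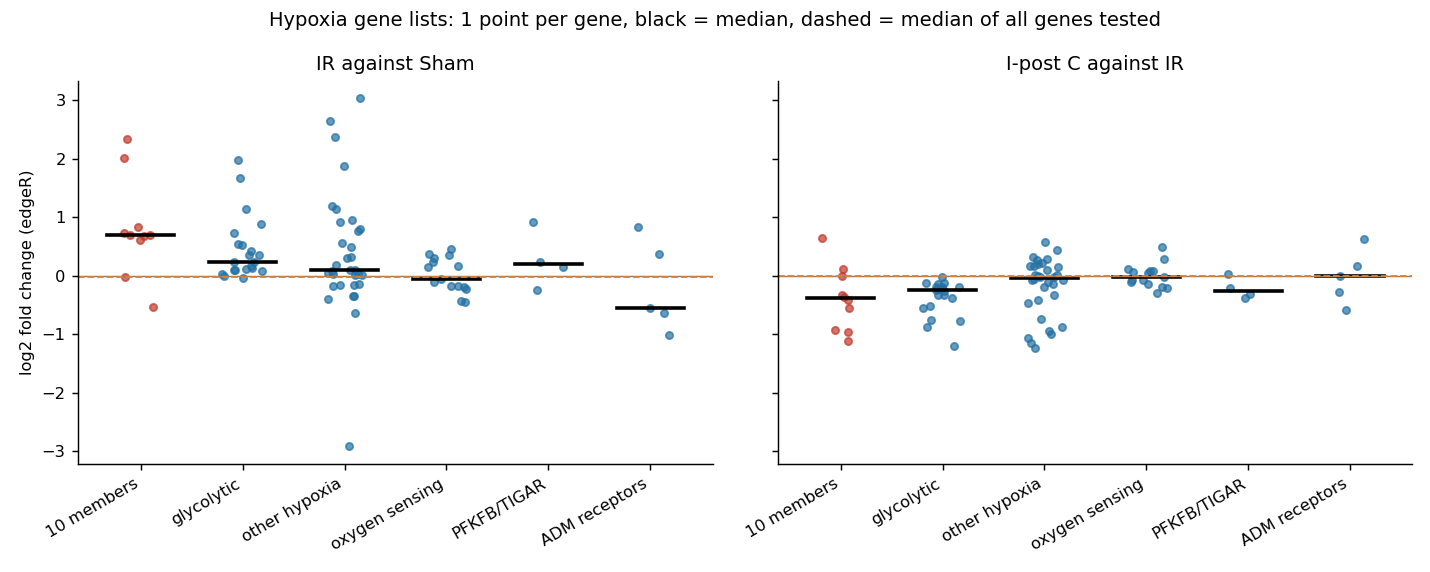
EdgeR log2 fold change (vertical axis) of the 10 genes and 5 lists of related genes in IR against Sham (left) and I-post C against IR (right). Each point is a gene, black lines are list medians, and the dashed line is the median of all 15402 genes tested. The medians of the 10 genes lie at 0.69 and -0.39.

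The genes most like Pfkfb3 were ranked by the root mean square distance between standardised log2(FPKM + 0.5) profiles over the 9 libraries, as a description. The nearest were Adamts1 (distance 0.20), a secreted metalloprotease, Fosl2 (0.26), an AP-1 transcription factor, Optc (0.26), Glipr2 (0.28) and Chst3 (0.30). Adamts1 was 14.3, 17.3 and 8.87 FPKM in Sham, 71.2, 60.4 and 107.0 in IR, and 104.8, 86.0 and 42.9 in I-post C. Like Pfkfb3, its clamped libraries were all above Sham, and IR and I-post C overlapped. Among the members, Stc1 was the nearest at rank 377 (0.69), followed by Hif1a at rank 793, and Adm was the farthest at rank 9547.

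**Figure D5:**
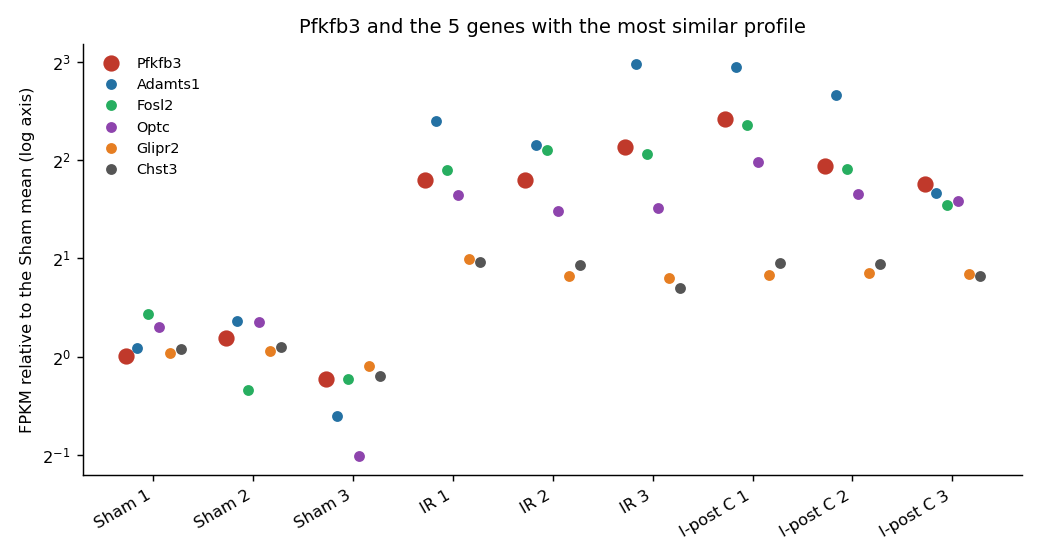
FPKM of Pfkfb3 (large red points) and of the 5 genes nearest to it in profile, each divided by its own Sham mean (vertical axis, logarithmic in base 2), in the 9 libraries (horizontal axis). For all 6 genes every IR and I-post C library lies above every Sham library, as for Adamts1, with 42.9 to 107.0 FPKM against 8.87 to 17.3.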

How the data were processed

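Poly(A) RNA of 3 Sham, 3 IR and 3 I-post C lungs was sequenced by the authors from strand-marking paired-end libraries. Per the submitters' processing notes reads were trimmed with Cutadapt 1.9, mapped with HISAT2 (2.2.1) to rn6 and assembled with StringTie (2.1.6 in the notes; the methods give another version) and ballgown. FPKM values were deposited by the authors, scaled for transcript length and library size. The authors also deposited counts, whole numbers for each gene. In every library their total exceeded the mapped reads that the paper lists, so they are not plain counts of mapped reads. The edgeR and DESeq2 p-values rest on them as deposited. The way of counting was not given in the sources used here, so no counting interval is printed.

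Counts were tested with edgeR (4.0.16, R 4.3.3), with TMM scaling, the quasi-likelihood test, all 9 libraries and group as the only term, over the 15402 genes whose mean FPKM reached 0.5, with two-sided Benjamini-Hochberg adjustment. Intervals are at 95%. Limma (3.58.1) on log2(FPKM + 0.5) and DESeq2 (1.42.0) were alternatives, beside other scaling, filters, pseudocounts, a replicate block and left-out libraries. The members and lists were chosen with earlier results of these data known. From each list were named the called genes or, with none called, the 2 most abundant, and the 5 genes nearest to Pfkfb3 in profile. The values of 1 called gene are not reported here. Groups and replicate numbers came from the labels. No 2 libraries held near-identical counts.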

Additional observations from a re-analysis of the deposited data

How the results depend on the processing

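The errors given come from fits to 3 libraries per group, and counting error was not separated from the spread between libraries. Replicate numbers are shared by the groups, but of 9 same-numbered pairs only 4 correlated above 0.1 in their deviations from the group means (r from -0.27 to 0.45), so the numbers were not taken to pair libraries. With the replicate block, 26 genes were called in IR against Sham in place of 46, and the adjusted p of Pfkfb3 was 0.0613. With it 0 members were called in IR against Sham and in the clamped comparison, where 0 of all genes were called in place of 6.

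In IR against Sham, 2 members were called with DESeq2 on all 9 libraries and on the compared libraries, 0 with edgeR on the compared groups only and 0 with Sham 3 and IR 3 left out, and 0 to 1 with 1 library left out. Over all genes these fits called, in the same order, 337, 293, 6, 5 and 0 to 55. In the clamped comparison, DESeq2 on all 9 libraries called 2, the fit without Sham 3 and IR 3 called 0, and leaving out 1 library gave 0 to 1. Over all genes that DESeq2 fit called 293, and leaving out 1 library gave 0 to 48. In I-post C against Sham, 1 member was called with DESeq2 under both fits and with limma at each pseudocount, and in I-post C against IR, 1 with DESeq2 on the compared groups. For I-post C against Sham, DESeq2 called 127 of all genes on all 9 libraries and 108 on the compared libraries. Limma called 1 gene there at each pseudocount. For I-post C against IR, DESeq2 on the compared groups called 37 of all genes. With 1 library left out neither comparison had any. Over all genes the calls in IR against Sham ranged from 0 to 337, those in I-post C against IR from 0 to 37, those in I-post C against Sham from 0 to 127, and those in the clamped comparison from 0 to 293, in place of 46, 0, 0 and 6. For I-post C against IR, limma on FPKM shifted the all-gene median by 0.12 to 0.14.

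In I-post C against IR, Pfkfb3 had a log2 fold change of 0.11 with total-count scaling, 0.0051 with no filter, 0.0069 with a minimum of 1 FPKM, 0.13 with limma at each pseudocount, 0.0039 with edgeR on the compared groups and 0.22 with Sham 3 and IR 3 left out, and left-out libraries gave -0.22 to 0.21. Without Sham 3 and IR 3 together, Adm in the clamped comparison was 0.14, Egln3 was -0.032 in IR against Sham and -0.18 in the clamped comparison, and Epas1 in IR against Sham was 0.16. Leaving out 1 library at a time, Adm ranged from -0.13 to 0.37 in I-post C against Sham and from -0.45 to 0.052 in the clamped comparison, Ankrd37 in the clamped comparison from -0.040 to 0.45, Bnip3 in I-post C against Sham from -0.014 to 0.72, Egln3 in the clamped comparison from -0.15 to 0.32, and Epas1 from -0.24 to 0.079 in IR against Sham, from -0.11 to 0.20 in I-post C against Sham and from -0.17 to 0.14 in the clamped comparison. The direction of Pfkfb3 in the 3 comparisons with Sham was above 0 under every alternative run. Apart from values given here, the cause of each change was not tested.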
